A study of Mus musculus with 5 samples.

Results

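Activator protein 1 (AP-1) is a transcription factor made of pairs of basic leucine zipper proteins. The 10 mouse genes described here are Fos, Fosb, Fosl1 and Fosl2 (the Fos subfamily), Jun, Junb and Jund (the Jun subfamily), and Atf3, Batf3 and Jdp2, whose proteins pair with Jun proteins. They were chosen by symbol, and all 10 were found among the 49927 Ensembl gene IDs of the deposited tables, 17427 of which were listed above 0 in at least 1 library. The libraries were made from regulatory T cells (Tregs), the CD4 T cells that restrain immune responses, and there was 1 library in each of 5 groups.

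Fos proteins do not pair with themselves and bind DNA as partners of Jun proteins, whereas Jun proteins can also pair with each other. The pairs bind the TPA response element (TRE) and the related cyclic AMP response element (CRE). Fos, Fosb, Jun, Junb and Atf3 are immediate early genes, transcribed within minutes of a stimulus from existing factors such as SRF and CREB, and their messages are short lived. In T cells, AP-1 acts downstream of the antigen receptor, binding with NFAT at cytokine genes, and pairs of BATF and JUN proteins bind with IRF4 in effector Tregs of tissues.

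All mice were C57BL/6 and carried Foxp3Cre, in which the Foxp3 gene of Tregs drives the Cre recombinase, so no library came from mice without Cre. The lymph node (LN) library came from Foxp3Cre mice at 4 months of age. The 3 other Foxp3Cre libraries came from adipose tissue: one of mice at 4 months, called lean here because no label names obesity, one of obese mice at 4 months with HFD in its title, and one of mice at 10 months. The last library, labelled Med23 KO, came from adipose tissue of Med23fl/fl;Foxp3Cre mice at 10 months. Med23 encodes a subunit of Mediator that is known as a partner of the SRF cofactor ELK1. The labels state neither the number of mice behind each library nor the sorting gate.

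Levels across libraries are given as CPM, a gene's reads per 1000000 listed reads, with a 95% counting interval. Within a deposited table, fold changes are ratios of the authors' scaled counts, and the interval after a fold is its 95% counting interval. With 1 library a group no test between conditions exists, and these intervals say nothing of the spread between mice. Listed reads ran from 4595046 in the library labelled Med23 KO to 9694474 in LN. A scaled count under 1 is listed as 0, so a listed 0 can stand for a few reads.

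Several facts of the libraries bear on all values. Med23 was at 15.5 CPM in the library labelled Med23 KO and at 6.32 CPM in the 10-month Foxp3Cre library, so the message of the targeted gene did not follow the label. A count over the whole gene does not show whether the floxed part was lost. Y-linked Ddx3y was read in the lean and obese libraries and at 0 or without a value in the other 3. Xist, expressed in female cells, was at 0 and 3.60 CPM in the lean and obese libraries against 228 to 602 in the others. Gapdh was at 1.05 and 10.7 CPM in the lean and obese libraries against 548 to 979 in the others. The 8 T cell and Treg markers (Cd3d, Cd3e, Cd3g, Cd4, Foxp3, Il2ra, Ikzf2 and Ctla4) were above 0 in every library, summing to between 6751 and 8932 CPM, but they did not run in parallel. Foxp3, the defining Treg factor, was at 52.5 CPM in LN and 155 to 216 in adipose, and Cd3g at 2787 in LN and 727 to 1147 in adipose. Il2ra was at 1520 CPM in lean and 1413 in 10-month Foxp3Cre adipose. It was at 291 in LN, 307 in obese and 342 in Med23 KO-labelled adipose. Of the 8, 2 were at least 2-fold higher and 3 lower in lean adipose than in LN. In bulk samples fewer cells of a type and less RNA per cell cannot be told apart.

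The promoters of 4 members are shown because 2 of them, Fosl2 and Atf3, had the largest folds between adipose and LN Tregs among the members listed above 0 in LN, and the others, Fos and Jun, are the founding members with smaller differences. Each sequence is the 250 bases before the gene's start, read 5′ to 3′ on the gene's strand, from RefSeq in build GRCm38.p6. They are chr5:32136222-32136471 (plus strand) for Fosl2, chr1:191183334-191183583 (minus strand) for Atf3, chr12:85473640-85473889 (plus strand) for Fos and chr4:95052223-95052472 (minus strand) for Jun. Capitals mark the motifs found on either strand.
Fosl2: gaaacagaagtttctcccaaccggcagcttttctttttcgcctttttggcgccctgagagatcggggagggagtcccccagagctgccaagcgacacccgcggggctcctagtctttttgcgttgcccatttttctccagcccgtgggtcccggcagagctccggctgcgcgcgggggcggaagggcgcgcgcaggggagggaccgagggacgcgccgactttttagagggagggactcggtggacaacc
Atf3: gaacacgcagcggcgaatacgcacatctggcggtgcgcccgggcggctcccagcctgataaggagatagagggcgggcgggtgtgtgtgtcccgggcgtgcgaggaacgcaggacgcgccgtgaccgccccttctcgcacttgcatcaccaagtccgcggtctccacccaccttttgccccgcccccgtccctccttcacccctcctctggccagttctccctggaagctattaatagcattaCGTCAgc
Fos: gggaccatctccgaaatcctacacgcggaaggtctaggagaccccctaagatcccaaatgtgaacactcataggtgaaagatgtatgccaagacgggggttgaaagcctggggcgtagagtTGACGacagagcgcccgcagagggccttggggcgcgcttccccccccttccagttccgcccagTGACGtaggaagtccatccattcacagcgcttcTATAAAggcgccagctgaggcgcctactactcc
Jun: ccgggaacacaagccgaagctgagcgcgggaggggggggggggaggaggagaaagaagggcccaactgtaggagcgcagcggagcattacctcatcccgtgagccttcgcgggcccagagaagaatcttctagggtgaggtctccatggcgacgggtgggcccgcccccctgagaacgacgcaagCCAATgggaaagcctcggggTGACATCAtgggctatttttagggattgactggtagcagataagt
The capitals in Atf3 are the CRE core TGACG on the opposite strand, 7 to 3 bases before the start. In Fos they are 2 CRE cores, the nearer at 66 to 62 bases before the start, and a TATA box. In Jun they are a CCAAT box and TGACATCA, the variant site known to bind JUN with ATF2, at 45 to 38 bases before the start. In Fosl2 none of the motifs was found.

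The motifs searched were TGACG, TGACGTCA (the full CRE, which contains TGACG), TGACATCA, the TRE TGANTCA, the CArG box bound by SRF, TATAAA and CCAAT. Windows were matched for 9 of the members, all but Fosl1, and Jdp2 had 3 starts. TGACG stood in windows of 5 of these 9 genes (Fos, Fosb, Junb, Atf3 and Jdp2) and in 17.8% of all 32851 promoter windows of the table. The members are counted by gene, also Jdp2 with its 3 starts, and the share is by window. G and C made up 47.6% (Jund) to 76% (Batf3) of the members' windows, against a median of 52.4% over all windows, and the shares were not matched for this. TGACATCA stood in Jun alone and in 2.93% of all windows. The TATA box stood in Fos and in 12.4% of windows, and CCAAT in Jun and Junb and in 33.8% of windows. TGACGTCA, TGANTCA and the CArG box were found in none of the members' windows and in 1.55%, 6.75% and 1.47% of all windows. Bases outside the windows were not searched, so whether Fos or another member carries these motifs farther upstream was not tested. As the Fosl2 window held none of the searched motifs, it could share none with Atf3 or any other member.

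**Figure D1:**
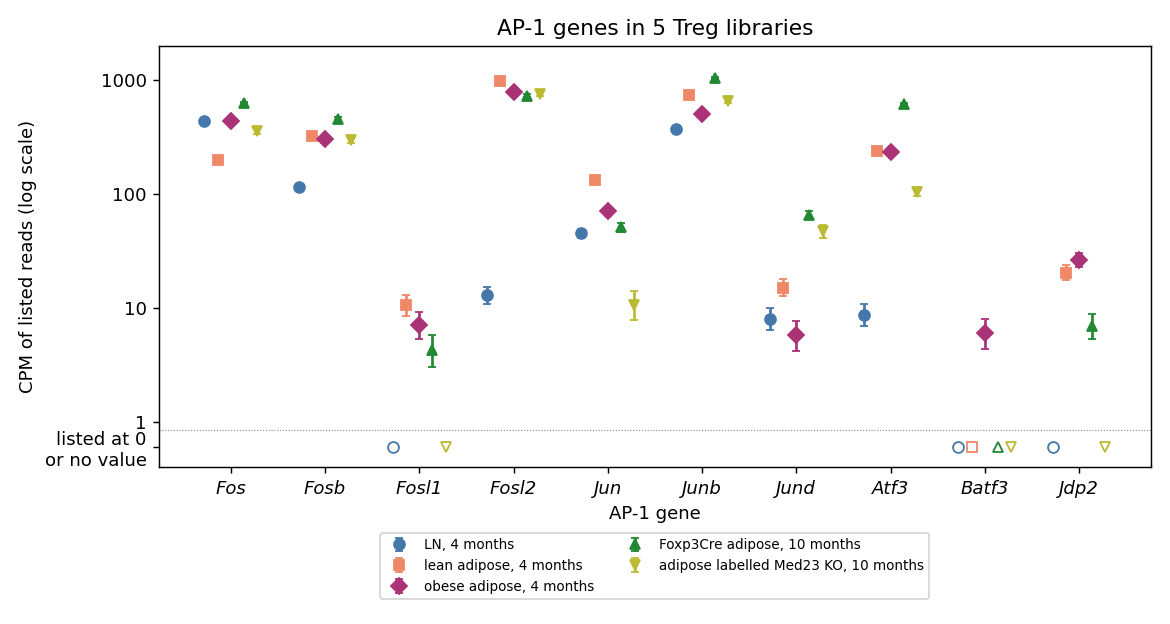
CPM of each AP-1 gene (log axis) in the 5 Treg libraries, with 95% counting intervals; open symbols stand for a gene listed at 0 or without a value. Fosl2 was at 12.9 CPM in LN and at 733 to 982 CPM in the 4 adipose libraries, while Fos in LN lay among the adipose libraries.

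Fosl2, which encodes the Fos-related protein FRA2, separated LN from every adipose library. It was at 12.9 CPM in LN (10.7 to 15.4), 982 in lean adipose (961 to 1003), 792 in obese adipose (772 to 812), 733 in 10-month Foxp3Cre adipose (716 to 750) and 758 in the library labelled Med23 KO (733 to 783). The LN value came from 125 reads and the adipose values from 3482 to 8386. Among the adipose libraries the highest and lowest value were 1.34-fold apart (1.30 to 1.38), and the 2 lowest, those at 10 months, did not differ beyond counting error (1.03-fold, 0.992 to 1.08).

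Fos showed no such separation. It was at 440 CPM in LN (427 to 454), 199 in lean adipose (190 to 209), 437 in obese adipose (422 to 452), 632 in 10-month Foxp3Cre adipose (616 to 648) and 357 in the library labelled Med23 KO (340 to 375). LN and obese adipose, next to each other in this order, did not differ beyond counting error (1.01-fold, 0.963 to 1.06). The lean adipose library was the lowest of the 5 and the 10-month Foxp3Cre library the highest.

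Fosb, a Fos-like protein that also exists as a short form without the activation domain, was lowest in LN. It was at 115 CPM there (108 to 122), at 326 in lean adipose (314 to 338), 302 in obese adipose (290 to 315), 458 in 10-month Foxp3Cre adipose (444 to 471) and 297 in the library labelled Med23 KO (282 to 314). Obese adipose and the library labelled Med23 KO did not differ beyond counting error (1.02-fold, 0.9497 to 1.09). Counts per gene do not tell the short form from the long one.

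Fosl1, which encodes FRA1, was low throughout. It was at 10.7 CPM in lean adipose (8.58 to 13.1), 7.07 in obese adipose (5.30 to 9.25) and 4.25 in 10-month Foxp3Cre adipose (3.05 to 5.76), and it was listed at 0 in LN and in Med23 KO-labelled adipose. The authors' deposited table gives fold changes against LN that correspond to 0 reads of Fosl1 there. These levels rest on 41 to 91 reads.

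The make-up of the Fos subfamily therefore differed between LN and adipose libraries. Per kilobase of annotated exon, Fos was 86.6% of the subfamily's CPM in LN and 28.1% in lean adipose, 50.3% in obese adipose, 56.0% in 10-month Foxp3Cre adipose and 46.5% in the library labelled Med23 KO. Fosl2 was 0.818% in LN and 44.6%, 29.4%, 20.9% and 31.9% in the same 4 adipose libraries. In lean adipose Fosl2 was the largest part per kilobase, and in the 4 other libraries it was Fos. Fosb was 12.6% in LN and between 19.4% and 25.6% in adipose. The subfamily's total was 241 CPM per kilobase in LN and 337, 412, 535 and 364 in lean, obese, 10-month Foxp3Cre and Med23 KO-labelled adipose. The lengths are those of GENCODE M21, and the annotation behind the counts is not given, so this order depends on the lengths taken. By reads, Fosl2 was the largest part in all 4 adipose libraries.

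As a share of reads, without the correction for length, Fosl2 took 2.27% of the subfamily's 5509 reads in LN (exact binomial interval 1.89% to 2.70%). It took 64.7% of 12962 in lean adipose (63.9% to 65.5%), 51.5% of 11529 in obese adipose (50.6% to 52.4%), 40.1% of 17632 in 10-month Foxp3Cre adipose (39.4% to 40.8%) and 53.7% of 6489 in the library labelled Med23 KO (52.4% to 54.9%). No interval of an adipose library came near that of LN. Fosl2 has 6537 bases of exon against 2108 for Fos, which is why its share of reads exceeds its share per kilobase.

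**Figure D2:**
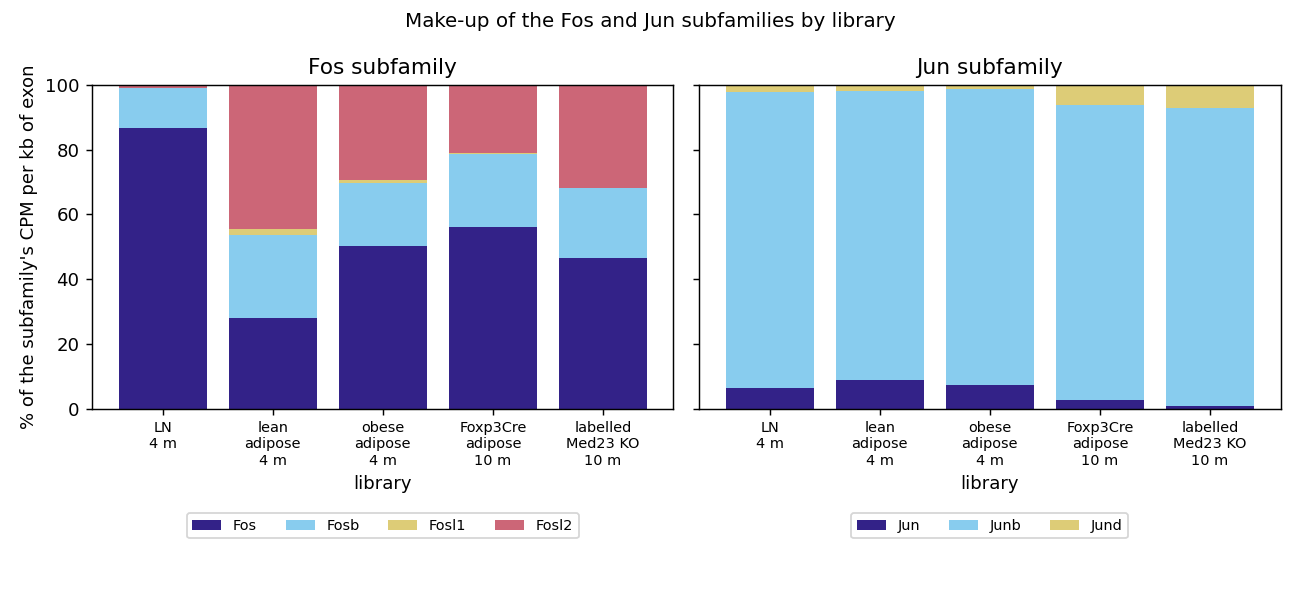
Share of each gene in its subfamily's CPM per kilobase of exon, in percent, as stacked bars for the 5 libraries (m, months). Fos made up 86.6% of the Fos subfamily in LN and 28.1% to 56.0% in adipose, and Junb made up 89.1% to 92.0% of the Jun subfamily in all 5.

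Junb, the Jun protein with the weaker activation domain, was the main Jun subfamily gene in each library. It was at 372 CPM in LN (360 to 385), 746 in lean adipose (727 to 764), 509 in obese adipose (493 to 526), 1039 in 10-month Foxp3Cre adipose (1018 to 1059) and 660 in the library labelled Med23 KO (637 to 684). LN was the lowest, and all neighbours in the order differed beyond counting error. Per kilobase Junb was 91.5% of the Jun subfamily in LN and 89.1%, 91.7%, 91.3% and 92.0% in lean, obese, 10-month Foxp3Cre and Med23 KO-labelled adipose. Prdx2 overlaps Junb on the opposite strand in the GENCODE annotation, was at 262 CPM in LN and 99.8 to 160 in adipose, and whether reads were counted by strand is not stated.

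Jun, the gene of the founding Jun protein, was highest in lean adipose and lowest in the library labelled Med23 KO. It was at 45.3 CPM in LN (41.1 to 49.7), 133 in lean adipose (125 to 140), 70.7 in obese adipose (64.8 to 77.0), 51.1 in 10-month Foxp3Cre adipose (46.7 to 55.8) and 10.7 in the library labelled Med23 KO (7.89 to 14.1). LN and 10-month Foxp3Cre adipose did not differ beyond counting error (1.13-fold, 0.990 to 1.29). Per kilobase Jun was 6.32% of its subfamily in LN and, in adipose, 8.98% in the lean, 7.22% in the obese, 2.55% in the 10-month Foxp3Cre library and 0.844% in Med23 KO-labelled adipose. The antisense gene Junos, which overlaps Jun, was at 2.37 CPM in LN, 1.07 in obese adipose and at 0 or without a value in the 3 others.

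Jund, the Jun gene usually least dependent on stimulation, was higher in both 10-month libraries than in every 4-month library. It was at 65.1 CPM in 10-month Foxp3Cre adipose (60.1 to 70.4) and 47.0 in the library labelled Med23 KO (40.9 to 53.7). In the 4-month libraries it was at 8.05 in LN (6.36 to 10.0), 15.1 in lean adipose (12.6 to 17.9) and 5.74 in obese adipose (4.15 to 7.73). LN and obese adipose did not differ beyond counting error (1.40-fold, 0.955 to 2.09), while lean adipose was above LN (1.88-fold, 1.41 to 2.52). The LN library is at 4 months only, so a tissue difference at 10 months cannot be seen. Both 10-month libraries also stand in a table of their own, so age and the making of that table cannot be told apart.

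Atf3, a stress-induced factor that represses transcription as a homodimer and pairs with Jun proteins, separated LN from adipose as Fosl2 did but varied more among the adipose libraries. It was at 8.66 CPM in LN (6.91 to 10.7), 241 in lean adipose (231 to 252), 235 in obese adipose (225 to 247), 619 in 10-month Foxp3Cre adipose (604 to 635) and 105 in the library labelled Med23 KO (95.9 to 115). Lean and obese adipose did not differ beyond counting error (1.02-fold, 0.961 to 1.09). The lowest adipose value was 12.1-fold above LN (9.60 to 15.5).

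Jdp2, a repressor that pairs with Jun and ATF proteins, and Batf3, known for its role in cross-presenting dendritic cells, were low. Jdp2 was at 20.4 CPM in lean adipose (17.5 to 23.6), 26.4 in obese adipose (22.9 to 30.4) and 6.94 in 10-month Foxp3Cre adipose (5.38 to 8.82), and was listed at 0 in LN and in Med23 KO-labelled adipose. From the fold changes of the authors' deposited table, 2 reads stand behind the 0 in LN and 4 behind the 0 in the library labelled Med23 KO. Batf3 was at 6.00 CPM in obese adipose (4.38 to 8.03, 45 reads), listed at 0 in LN, and had no value in the tables of the lean adipose and the 10-month libraries.

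The comparison of lean adipose with LN Tregs asks what sets Tregs of fat apart from those of lymphoid tissue. Tissue and the Ddx3y and Xist reads, which mark the sex of the mice, differ together here and cannot be told apart. Gapdh differed as well, at 1.05 CPM in lean adipose against 979 in LN. On the log2 scale with a pseudocount of 1, 6 of the 9 measured members were at least 2-fold higher in the lean library. These were Fosb, Fosl1, Fosl2, Jun, Atf3 and Jdp2, beside 37.6% of all 13541 measured genes. The 1 member lower by 2-fold or more was Fos, beside 32.1% of all genes, and Batf3 had no value. Fosl2 was 69.0-fold higher (57.8 to 83.0) and Atf3 25.2-fold higher (20.3 to 31.8). Jun was 2.65-fold (2.37 to 2.97) and Fosb 2.56-fold higher (2.39 to 2.75), while Fos was 2.44-fold lower (2.30 to 2.58). Junb was 1.82-fold (1.74 to 1.89) and Jund 1.70-fold higher (1.27 to 2.28), both under the 2-fold size, though Junb reached it in CPM. Fosl1 and Jdp2, listed at 0 in LN, could count only as higher. The median log2 ratio was 1.39 over the 9 measured members and 0.14 over all measured genes.

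In obese adipose against LN, 6 of the 10 members (Fosb, Fosl1, Fosl2, Atf3, Batf3 and Jdp2) were at least 2-fold higher, beside 41.8% of all 14713 genes, and 0 were at least 2-fold lower, beside 23.7%. Fosl2 was 54.6-fold (45.7 to 65.7), Atf3 24.1-fold (19.4 to 30.4) and Fosb 2.33-fold higher (2.17 to 2.51). Fos was 1.13-fold lower (1.08 to 1.19), Jun 1.39-fold higher (1.22 to 1.58), Junb 1.22-fold higher (1.16 to 1.27) and Jund 1.58-fold lower (1.07 to 2.35). For Fos and Jund these intervals hold on the authors' scale only, since in CPM neither differed from LN beyond counting error. Fosl1, Batf3 and Jdp2 were listed at 0 in LN and could count only as higher. The comparison shares the LN library with the one above, so the members' like directions are not separate evidence. Tissue and the Ddx3y and Xist reads differ together here too, and Gapdh was at 10.7 CPM in obese adipose against 979 in LN.

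In 10-month Foxp3Cre adipose against LN, ratios are on the CPM scale since each table has its own scaling. Of the 9 measured members, 7 (Fosb, Fosl1, Fosl2, Junb, Jund, Atf3 and Jdp2) were at least 2-fold higher, beside 34.3% of 13187 genes. Members at least 2-fold lower numbered 0, beside 29.8%. Atf3 was 71.5-fold (57.6 to 89.7), Fosl2 56.8-fold (47.6 to 68.4), Jund 8.09-fold (6.38 to 10.4), Fosb 3.97-fold (3.72 to 4.25) and Junb 2.79-fold higher (2.69 to 2.90). Fosl1 and Jdp2, listed at 0 in LN, could count only as higher, and Batf3 was not measured. With a pseudocount of 5 Fosl1 did not reach 2-fold (log2 ratio 0.89). Fos was 1.44-fold higher (1.38 to 1.49), on the other side of LN from the lean library. The 10-month Foxp3Cre and LN libraries both lack Ddx3y reads and have Gapdh at 639 and 979 CPM, but their ages differ.

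**Figure D3:**
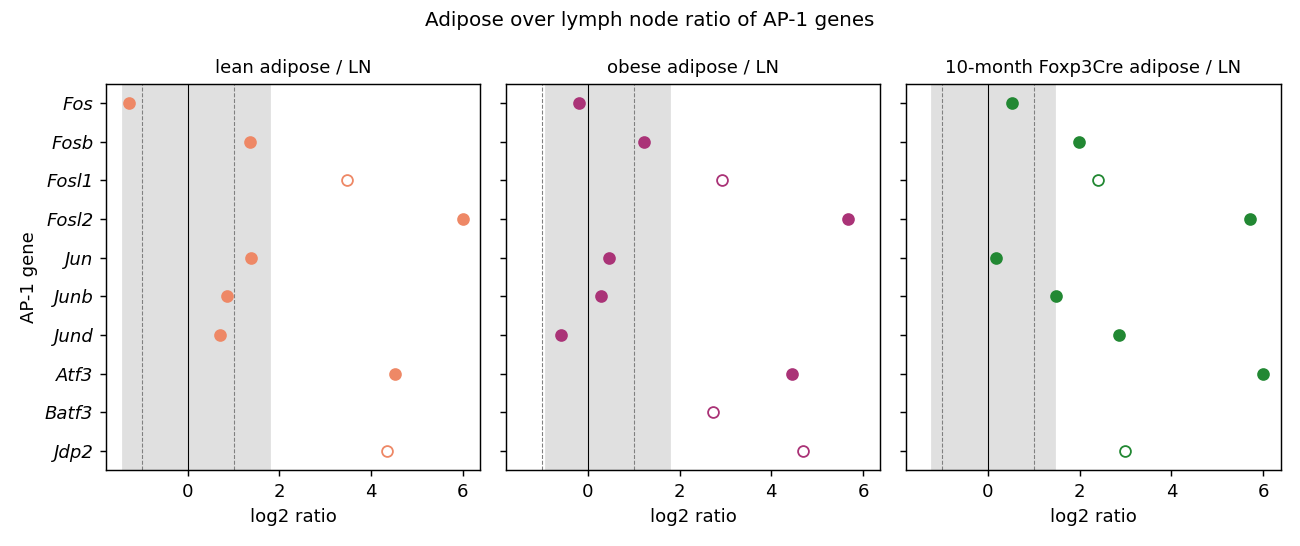
Log2 ratio (pseudocount of 1) of each AP-1 gene in lean, obese and 10-month Foxp3Cre adipose over LN Tregs; grey bands span the middle 50% of all measured genes, dashed lines mark 2-fold, and open circles mark genes listed at 0 in LN. Fosl2 and Atf3 lie right of the band in all 3 panels, and Fos lies left of 0 in the first 2 and right of it in the last.

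Obese against lean adipose Tregs addresses obesity within fat. The 2 libraries also differed in summed macrophage (4706 against 833 CPM), fibroblast and mesothelial (14.7 against 982) and adipocyte markers (304 against 13.7). Dissociation genes summed to 11576 CPM in the obese against 17122 in the lean library. The part of these in the ratios was not tested. In CPM, 2 of the 10 members (Fos and Batf3) were higher by 2-fold or more in the obese library, beside 34.0% of 14805 genes. Batf3 had no value in the lean library's table and could count only as higher. The 1 member at least 2-fold lower was Jund, beside 18.6%. Fos was 2.19-fold higher (2.06 to 2.32), while Jund was 2.63-fold (1.85 to 3.81), Jun 1.87-fold (1.69 to 2.08), Junb 1.46-fold (1.41 to 1.52), Fosl1 1.51-fold (1.06 to 2.16) and Fosl2 1.24-fold lower (1.20 to 1.28). Jdp2 was 1.30-fold higher (1.05 to 1.60), Fosb 1.08-fold lower (1.02 to 1.14) and Atf3 within counting error. Of the 3 Jun genes only Jund passed 2-fold, and with a pseudocount of 5 it did not (-0.91 on the log2 scale).

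In 10-month Foxp3Cre against 4-month lean adipose, 3 members (Fos, Jund and Atf3) were at least 2-fold higher in CPM, beside 28.5% of 13880 genes, and 3 (Fosl1, Jun and Jdp2) at least 2-fold lower, beside 32.7%. Jund was 4.31-fold (3.56 to 5.25), Fos 3.17-fold (3.00 to 3.35) and Atf3 2.57-fold higher (2.44 to 2.70). Jdp2 was 2.93-fold (2.20 to 3.95), Jun 2.59-fold (2.33 to 2.89) and Fosl1 2.51-fold lower (1.72 to 3.72). The Fosl1 call did not hold after centring on the median ratio of genes with a mean of at least 10 (log2 ratio -0.95) or with a pseudocount of 5 (-0.76). Fosb and Junb were 1.40-fold (1.34 to 1.47) and 1.39-fold higher (1.35 to 1.44), and Fosl2 1.34-fold lower (1.30 to 1.38). Age, the Ddx3y reads and the separate tables differ together here and cannot be told apart. Gapdh (639 against 1.05 CPM) and the summed fibroblast and mesothelial markers (48.9 against 982 CPM) differed as well.

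The library labelled Med23 KO against 10-month Foxp3Cre adipose asks what loss of MED23 does in adipose Tregs, and each direction rests on the label. On the authors' scale, 5 of the 9 measured members were at least 2-fold lower in the library labelled Med23 KO. These were Fos, Fosl1, Jun, Atf3 and Jdp2, beside 34.9% of 13549 genes. Members at least 2-fold higher numbered 0, beside 28.6%, and Batf3 had no value. Atf3 was 7.27-fold (6.63 to 7.99), Jun 5.91-fold (4.40 to 8.10) and Fos 2.19-fold lower (2.07 to 2.31). Junb was 1.94-fold (1.87 to 2.02), Fosb 1.90-fold (1.79 to 2.02), Jund 1.71-fold (1.46 to 2.004) and Fosl2 1.19-fold lower (1.15 to 1.24). Fosl1 and Jdp2 were at 4.72 and 7.71 scaled counts in Foxp3Cre and listed at 0 in the library labelled Med23 KO, where 1 read is worth 0.196 scaled counts against 0.115, and could count only as lower. With a pseudocount of 5 Fosl1 did not reach 2-fold (log2 ratio -0.96).

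The scale moved these ratios. In CPM the median log2 ratio of all genes was 0.15, against -0.15 on the authors' scale. Atf3 was then 5.89-fold (5.37 to 6.48), Jun 4.79-fold (3.57 to 6.56), Fos 1.77-fold (1.68 to 1.87), Junb 1.57-fold (1.51 to 1.64), Fosb 1.54-fold (1.45 to 1.64) and Jund 1.38-fold lower (1.18 to 1.62). Fosl2 lay on the other side, 1.03-fold higher (0.992 to 1.08). Atf3 and Jun kept a difference of over 2-fold on both scales, and Fos did not.

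**Figure D4:**
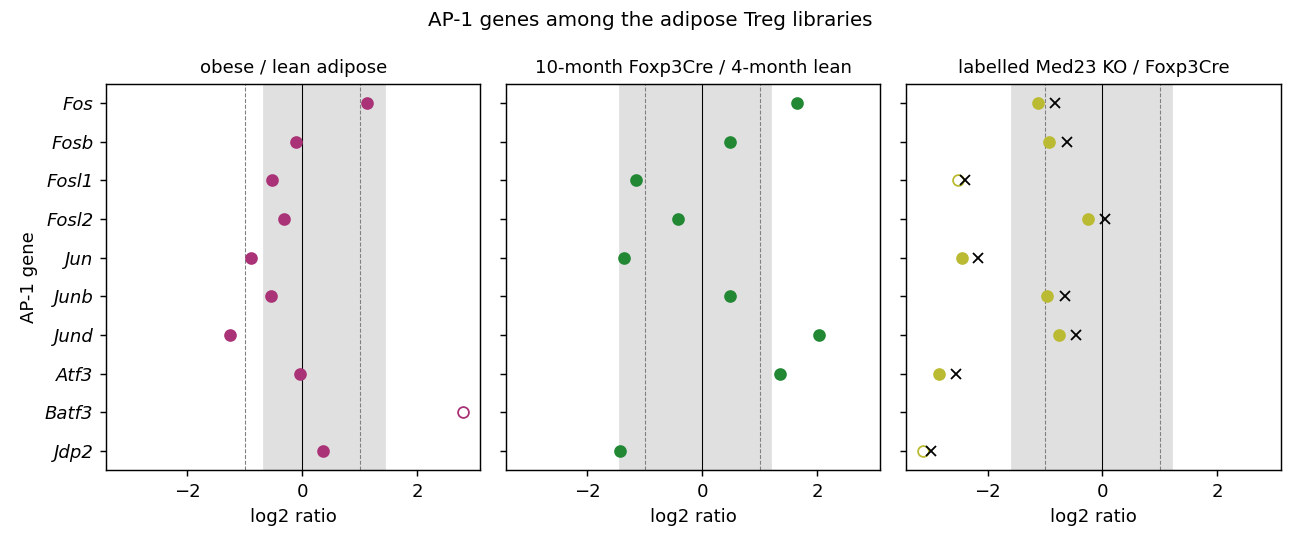
Log2 ratio (pseudocount of 1) of each AP-1 gene between adipose libraries; grey bands span the middle 50% of all measured genes, dashed lines mark 2-fold, open circles mark genes at 0 or without a value in 1 library, and crosses give the last panel in CPM. In the last panel Atf3 and Jun lie at -2.85 and -2.45 on the authors' scale, and Fosl2 moves from -0.26 to 0.05 in CPM.

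Lists of genes around AP-1 are given beside the same shares over all genes, whose median log2 ratio was 0.14 in lean, 0.44 in obese and 0.10 in 10-month Foxp3Cre adipose against LN. Of 30 other basic leucine zipper genes, 14 of 26 measured were at least 2-fold higher and 3 lower in lean adipose than in LN, 13 of 27 and 2 in obese adipose, and 12 of 25 and 3 in 10-month Foxp3Cre adipose. Over all genes, 37.6%, 41.8% and 34.3% were higher and 32.1%, 23.7% and 29.8% lower, and the median of the list was 1.07, 0.77 and 0.99. Crem, whose products bind the CRE and include the inducible repressor ICER, was at 132 CPM in LN and 2149, 1539, 3728 and 2153 in lean, obese, 10-month Foxp3Cre and Med23 KO-labelled adipose. Like Fosl2 and Atf3 it was lower in LN than in every adipose library. Bach1, a heme-sensing repressor, was listed at 0 in LN and at 19.0 to 91.2 CPM in adipose. Cebpd, an acute phase regulator, was at 49.5 CPM in lean adipose, 5.47 in obese, 5.18 in 10-month Foxp3Cre, and listed at 0 in the others.

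Batf, the AP-1 factor of effector T cells that is not among the 10, did not separate LN from adipose. It was at 179 CPM in LN, 231 in lean, 110 in obese and 195 in 10-month Foxp3Cre adipose, and at 16.8 in the library labelled Med23 KO, 14.3-fold lower than in Foxp3Cre on the authors' scale (11.4 to 18.2). Its DNA-binding partner Irf4 was at 7.43 CPM in LN, 285 in lean, 53.4 in obese, 223 in 10-month Foxp3Cre and 17.6 in Med23 KO-labelled adipose. Of the 9 partner genes on the list (NFAT, IRF, RUNX, ETS and SMAD factors), 4, 4 and 3 reached 2-fold above LN in lean, obese and 10-month Foxp3Cre adipose, and 1, 0 and 0 reached 2-fold below it, beside 37.6%, 41.8% and 34.3% of all genes above and 32.1%, 23.7% and 29.8% below. Their median log2 ratio was 0.72, 0.77 and 0.57. Smad3 was at 23.0 CPM in LN and 80.6 to 197 in adipose, and Irf8 at 2.27 in LN and 15.0 to 89.9 in adipose.

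Among 21 MAP kinase genes, which relay signals to Fos and Jun proteins and their promoters, 10 of 20 measured were at least 2-fold higher and 4 lower in lean adipose than in LN, 9 of 21 and 1 in obese adipose, and 9 of 21 and 3 in 10-month Foxp3Cre adipose. The shares of all genes were 37.6%, 41.8% and 34.3% higher and 32.1%, 23.7% and 29.8% lower, and the median log2 ratio of the kinases was 0.88, 0.92 and 0.43. Mapk8, which encodes the Jun kinase JNK1, was at 53.6 CPM in LN, 64.9 in lean, 59.4 in obese and 60.4 in 10-month Foxp3Cre adipose, and at 2.39 (11 reads) in the library labelled Med23 KO, 31.2-fold lower than in Foxp3Cre on the authors' scale (17.3 to 62.8). Mapk9, which encodes JNK2, was at 8.08 CPM in lean adipose and 51.4 to 77.1 in the 4 other libraries. Each of these kinase genes thus stood low in 1 library, a different one for each. Map2k6 was at 14.8 CPM in LN, 4.57 in lean, 3.33 in obese and 1.96 in Med23 KO-labelled adipose and listed at 0 in 10-month Foxp3Cre, and Mapk11 was at 9.59, 17.7 and 7.87 CPM in LN, lean and obese and at 0 or without a value in both 10-month libraries.

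The list of SRF, its cofactors and MEF2 factors had 8, 8 and 9 genes measured in lean, obese and 10-month Foxp3Cre adipose against LN. Of these, 3, 5 and 4 reached 2-fold above LN, and 2, 1 and 3 reached 2-fold below it. Of all genes, 37.6%, 41.8% and 34.3% were above and 32.1%, 23.7% and 29.8% below. Srf was listed at 0 in LN and was at 13.6 CPM in lean, 6.80 in obese, 26.5 in 10-month Foxp3Cre and 38.5 in Med23 KO-labelled adipose. Elk1 was listed above 0 in the 10-month Foxp3Cre library alone, at 1.35 CPM. Mef2c was at 12.8 CPM in LN, 36.2 in obese adipose and 1.29 to 2.69 in the others, and Mrtfb at 23.8 in LN, 26.8 in obese adipose, and 0 to 2.83 in the others.

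Among the 8 genes of AP-1 message decay and protein turnover, 1, 2 and 2 reached 2-fold above LN in lean, obese and 10-month Foxp3Cre adipose, and 2, 1 and 3 reached 2-fold below it, against 37.6%, 41.8% and 34.3% of all genes above and 32.1%, 23.7% and 29.8% below. Zfp36, which encodes the decay factor TTP that acts on AU-rich messages such as that of Fos, was at 219 CPM in LN, 431 in lean, 537 in obese, 561 in 10-month Foxp3Cre and 175 in Med23 KO-labelled adipose. Zfp36l2, of the same family, was at 1248 CPM in LN and 456 to 667 in adipose. Fbxw7, a ubiquitin ligase component that targets Jun, was at 5.36 CPM in LN, 78.0 in lean, 27.3 in obese, 25.1 in 10-month Foxp3Cre and 69.4 in Med23 KO-labelled adipose.

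Of 15 textbook AP-1 target genes, 10 of 13 measured were at least 2-fold higher and 0 lower in lean adipose than in LN, 11 of 15 and 1 in obese adipose, and 8 of 12 and 2 in 10-month Foxp3Cre adipose. All genes had shares of 37.6%, 41.8% and 34.3% higher and 32.1%, 23.7% and 29.8% lower, and the median log2 ratio of the targets was 2.15, 2.40 and 1.75. In the library labelled Med23 KO, 8 of 11 measured were at least 2-fold lower than in Foxp3Cre and 0 higher, beside 34.9% and 28.6% of all genes. Targets listed at 0 in LN could count only as higher against it. The count for the library labelled Med23 KO is on the authors' scale. Mmp9, Plau, Hmox1, Timp1 and Spp1 were listed at 0 in that library and could not count as higher there. Plaur, the urokinase receptor gene, was listed at 0 in LN and was at 65.6 CPM in lean, 103 in obese, 61.1 in 10-month Foxp3Cre and 20.9 in Med23 KO-labelled adipose. Il6 was at 329 CPM in lean and 42.0 in obese adipose and listed at 0 or without a value in the others, and Ccl2 was at 13.6 in LN, 1254 in lean, 849 in obese, 53.9 in 10-month Foxp3Cre and 116 in Med23 KO-labelled adipose. Il6 and Ccl2 are also made by stromal and myeloid cells.

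Genes known to respond to tissue dissociation also differed between the libraries. The 22 genes of that list (without members of the AP-1 family) summed to 7465 CPM in LN, 17122 in lean, 11576 in obese, 13888 in 10-month Foxp3Cre and 8862 in Med23 KO-labelled adipose, and the 10 AP-1 genes to 1003, 2673, 2392, 3608 and 2235. LN was the lowest on both. Of the list, 16, 11 and 11 of 22 genes reached 2-fold above LN in lean, obese and 10-month Foxp3Cre adipose, and 1 reached 2-fold below it in each, beside 37.6%, 41.8% and 34.3% of all genes above and 32.1%, 23.7% and 29.8% below. In the library labelled Med23 KO, 11 of 22 were at least 2-fold lower than in Foxp3Cre and 1 higher on the authors' scale, beside 34.9% and 28.6% of all genes. Ier3, Egr1, Hspa1a and Hspb1 were listed at 0 in that library and could not count as higher there. The inducible chaperone gene Hspa1b was at 1908 CPM in lean and 578 in obese adipose, 43.6 and 36.1 at 10 months, and listed at 0 in LN. Hsph1 was at 1001 CPM in lean and 314 in obese adipose, 50.9 in 10-month Foxp3Cre, 81.4 in Med23 KO-labelled adipose and 11.4 in LN, and Hspa1a at 347, 170, 6.01, 0 and 0 in the same order. The part of dissociation in the AP-1 levels was not tested.

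Markers of other cells also differed between the libraries. Of 11 macrophage and dendritic cell markers, 1 was above 0 in LN, 9 in lean, 11 in obese, 8 in 10-month Foxp3Cre and 5 in Med23 KO-labelled adipose, with sums of 7.01, 833, 4706, 648 and 105 CPM. Csf1r and Mrc1 were listed at 0 in LN and in Med23 KO-labelled adipose. Fosl2 was at 758 CPM where this list summed to 105 and at 792 where it summed to 4706. Atf3 was highest in the 10-month Foxp3Cre library and lowest of the adipose libraries where the macrophage sum was also lowest, and Batf3 was listed above 0 only where that sum was highest. The part of macrophages in the levels of Fosl2, Atf3 and Batf3 was not tested.

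The 8 fibroblast and mesothelial markers summed to 982 CPM in lean adipose, with Upk3b and Msln at 0, and to 8.56, 14.7, 48.9 and 0 CPM in LN, obese, 10-month Foxp3Cre and Med23 KO-labelled adipose. Jun and Fosl1 were highest in the lean library, and the part of stromal cells in this was not tested. Erythroid markers summed to 7025 CPM in the library labelled Med23 KO, to 540 to 944 in the other adipose libraries and to 0 in LN. Adipocyte markers summed to 304 CPM in obese adipose and at most 38.0 elsewhere, with Plin1 and Lep at 0 in all. B cell markers summed to 101 CPM in LN and at most 25.7 in adipose, CD8 T and NK markers to 5.27 to 60.1, endothelial markers to 16.8 to 81.0 with Cdh5 and Kdr at 0, and granulocyte and mast cell markers to at most 8.15.

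**Figure D5:**
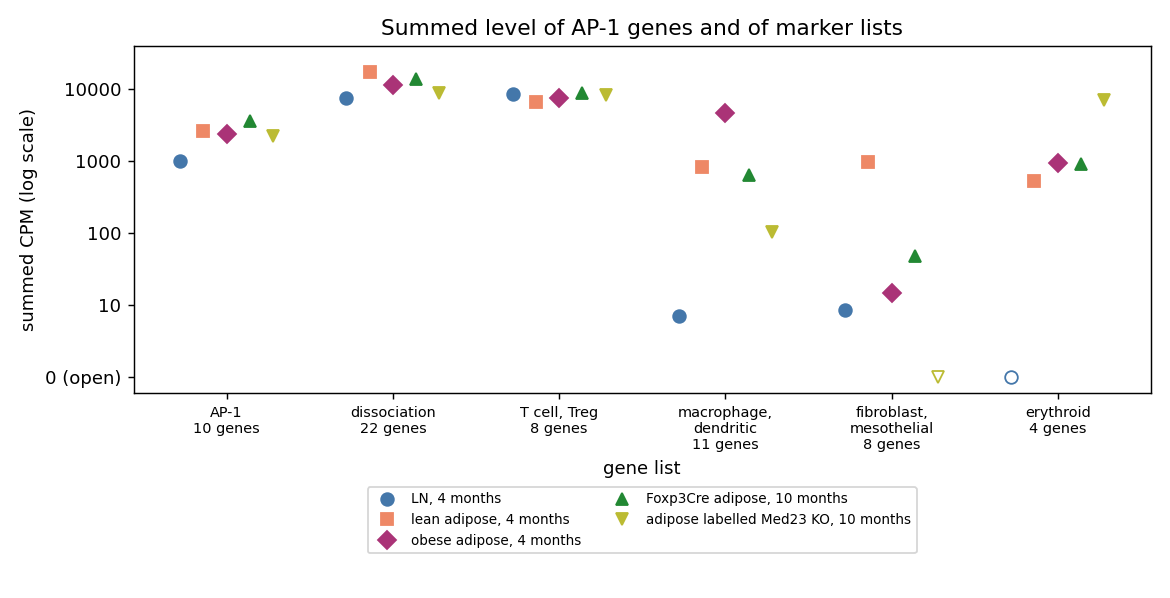
Summed CPM (log axis) of the 10 AP-1 genes, of dissociation genes and of marker lists in the 5 libraries; open symbols stand for a sum of 0. LN is lowest for AP-1 at 1003 CPM, the T cell sum lies between 6751 and 8932 although its genes differ in opposite directions, and the macrophage list spans 7.01 to 4706.

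Genes with the profile most like a member's were found by the root mean square difference of log2(CPM + 1) over the 5 libraries, each gene centred on its own mean, among 10273 genes with a mean of at least 5 CPM. For Fos they were Ncoa4, Bcl10 and Wdr43, at 0.10, 0.13 and 0.16 log2 units. Bcl10, a signalling adaptor of the antigen receptor, was at 107 CPM in LN, 48.7 in lean, 85.9 in obese, 158 in 10-month Foxp3Cre and 79.7 in Med23 KO-labelled adipose. For Fosl2 they were Ehd4, Rap2a and Ern1, at 0.30, 0.32 and 0.33, each listed at 0 in LN and at 30.9 to 104 CPM in adipose. For Batf3, itself under that mean, they were Selenop, Plk2 and Tubgcp2, at 0.24, 0.30 and 0.44, each highest in obese adipose.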

How the data were processed

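Total RNA of sorted Tregs from lymph nodes or adipose tissue was made into 1 TruSeq library per group, per the labels' protocols. Bowtie2 2.0.6, TopHat2 2.0.9 and build mm8 are named in the processing notes of the submitters. The sources used here do not give the counter, annotation, strand setting or scaling. The authors deposited 3 tables of 2 libraries, the LN library standing in 2 of them. The deposited signal is a scaled read count per gene, with values under 1 listed as 0. The authors' log2 fold change was used only to find reads behind a listed 0. All nonzero values were whole multiples of 1 step per column within 0.01 read (100%), which gave the reads behind each value. As these are no raw counts and groups have 1 library, no count model was fitted.

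CPM rescales each column to a sum of 1000000. A gene was measured if listed at 1 or more in either library, and called by a 2-fold size on log2((value + 1)/(value + 1)). Fold intervals are 95% Clopper-Pearson intervals conditional on both libraries' reads, level intervals are exact Poisson intervals, and all cover counting error only. A row without values in a table was taken as 0 in comparisons across tables, and 0 such rows held an LN value in the other table. The reference's name table gave a symbol for 49326 of 49927 IDs, GENCODE M21 the exon lengths and RefSeq (GRCm38.p6) the promoters. The files hold no coordinates, so promoters were matched by symbol.

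The members and gene lists were chosen with earlier results of these data known. All 10 members were named, and of each list the 3 genes with the largest absolute log2 ratio of lean or 10-month Foxp3Cre adipose against LN, plus Batf, Irf4, Srf, Elk1, Mapk8, Mapk9, Zfp36 and Med23, and the 3 genes most alike to Fos, Fosl2 and Batf3. Cell marker lists are given by their sums and by markers at 0. Ddx3y, Xist and Gapdh were picked after their values were known. Python 3.11.15 was used with the packages numpy 2.4.6, pandas 2.3.3, scipy 1.17.1 and, for plots, matplotlib 3.10.9. The scripts' statistics were tested on simulated data.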

Additional observations from a re-analysis of the deposited data

Results flagged for a closer look

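Fos and Jund lay on opposite sides of LN in different adipose libraries. On the scale of each ratio every value lay beyond counting error, but in CPM neither gene in obese adipose differed from LN beyond it, so the lower side of Jund rests on the authors' scale. The log2 ratio of Fos over LN was -1.28 in lean, -0.18 in obese and 0.52 in 10-month Foxp3Cre adipose. That of Jund was 0.70 in lean, -0.57 in obese and 2.87 in 10-month Foxp3Cre adipose. The LN library is shared by these ratios, the last one is in CPM, and the difference between adipose libraries was not tested, as each group has 1 library.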

How the results depend on the processing

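The settings tried were a pseudocount of 0.1 or 5, no filter on low values or a mean of at least 10, centring on the median, and other scales. Of 84 counts of members past 2-fold under these settings, 81 stayed within 1.5 times the reported count. For obese against lean adipose, a pseudocount of 5 left 0 members at least 2-fold lower (1 as reported), and a mean of at least 10 left 1 higher (2 as reported), since Batf3 was not then measured. For the library labelled Med23 KO a mean of at least 10 left 3 members at least 2-fold lower (5 as reported), since Fosl1 and Jdp2 were not then measured. Of 380 values of single members, 320 moved by no more than the width of their counting interval on one side or, with a listed 0, by no more than 1 log2 unit. The other 60 moved further, and no ratio past 2-fold changed sign. Fosl2 in the library labelled Med23 KO, a ratio under 2-fold, went from -0.26 to 0.05 in CPM and to 0.09 without ribosomal protein, mitochondrial and haemoglobin genes in the sum. In CPM the median log2 ratio of all genes went from 0.14 to 0.28 for lean adipose against LN and from 0.44 to 0.60 for obese adipose against LN.

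Over all genes, a mean of at least 10 leaves fewer genes tested. It gave 2447 higher and 2284 lower for lean adipose against LN (5098 and 4344 as reported), 2131 and 2061 for obese adipose against LN (6144 and 3484) and 1418 and 1255 for obese against lean adipose (5034 and 2761). It gave 1742 and 2058 for the library labelled Med23 KO (3877 and 4730), 1420 and 2130 for 10-month Foxp3Cre against lean adipose (3958 and 4545) and 1905 and 2026 for 10-month Foxp3Cre adipose against LN (4529 and 3926). With a pseudocount of 5, genes higher numbered 3370 for obese adipose against LN, 2277 for 10-month Foxp3Cre against lean adipose and 2793 for 10-month Foxp3Cre adipose against LN. With it, 2466 were higher and 1670 lower for obese against lean adipose, and 2515 and 3149 for the library labelled Med23 KO. No replicate could be left out, and no paired analysis was possible because each group has 1 library. Depth limits Fosl1, Batf3, Jdp2 and, at 4 months, Jund, which rest on at most 198 reads in a library. It also bears on the folds of Fosl2 and Atf3 over LN, with 125 and 84 reads in LN. Jun had 49 reads in the library labelled Med23 KO.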
